A study of Homo sapiens with 6 samples.

Results

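The genes described here are listed as targets of p53, or as genes that feed back on it, measured in A549 cells after a PIAS3 plasmid or a STAT3 siRNA. They were taken from a list of 37 symbols, and each was read where the array annotation gave a probe set that symbol alone. Of the 37 genes, 32 were measured, among 11963 genes in all, and BTG2, RRM2B, SESN2, FDXR and TP53INP1 were not analysed here. Each gene was represented by whichever of its probe sets had the highest mean level, and values are log2 levels.

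A549 is an established human lung adenocarcinoma line, and 6 Affymetrix arrays of it formed 3 groups of 2. The first group was transfected with human PIAS3 in pCMV5, a vector with a cytomegalovirus promoter that is active in most cell types. The second was transfected with an siRNA against STAT3, and the third, the EGF control, was stimulated with EGF and not transfected. All groups were seeded for 12 h with 10% FBS, and total RNA was isolated 48 h post-transfection, with no time stated for the control. The design text gives serum-free medium and EGF to all of them, whereas the titles name EGF for the control arrays only. No empty-vector or non-targeting siRNA arrays were analysed here, so an effect of transfection itself and one of PIAS3 or of the siRNA cannot be told apart. The same holds for EGF and for harvest time, should either have differed between the control and the transfected arrays. The labels name no separate cultures within a group, so p-values rest on variation between arrays that may be purely technical, and 2 arrays per group limit the precision. Both comparisons with the control use the same 2 control arrays.

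p53 is a transcription factor that accumulates after DNA damage and other stress and binds paired half-sites near its target genes. Its targets arrest the cell cycle, repair DNA, limit oxidative stress, or promote cell death, and some, led by MDM2, lower p53 again. PIAS3 is a SUMO E3 ligase known as an inhibitor of STAT3, a transcription factor downstream of cytokine and growth factor receptors. A549 is known to carry wild-type p53 and to lack the CDKN2A locus, whose ARF product restrains MDM2.

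STAT3 itself (Entrez gene 6774) read 10.18 and 9.70 with PIAS3, 10.23 and 9.94 with the siRNA, and 10.50 and 10.43 in the control. All 4 transfected arrays lay below both controls, by 0.53 ± 0.18 (SE, n = 2 per group) with PIAS3 and by 0.38 ± 0.18 with the siRNA, and neither difference passed the test (limma adjusted p = 0.254 and 0.9998). The PIAS3 gene (10401) read 7.78 and 7.72 with the plasmid, 7.50 and 7.64 with the siRNA, and 7.70 and 7.71 in the control, a difference of 0.04 ± 0.11 for the plasmid (adjusted p = 0.919). Whether its probes lie within the insert is unknown here, so this level checks nothing about the plasmid. PIAS3 replicate 1 stood apart: the median of 17 interferon-stimulated genes was 4.33 above the control mean there, against -0.02 in PIAS3 replicate 2 and -0.03 and 0.05 in the siRNA arrays. Its 24 poly-A spike-in probe sets had a median of 1.41 above the control mean, against -0.13 in replicate 2, and its actin 3′ minus 5′ signal was the highest of the arrays (0.43 and 0.28 with PIAS3, 0.16 and 0.23 with the siRNA, 0.12 and 0.10 in the control). Epithelial markers fitted the label, with 7 of 8 above the median gene, but 1 of 4 alveolar type II markers was, and 0 of 5 leukocyte, 1 of 6 fibroblast and 0 of 5 endothelial markers were.

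None of the 32 p53 target genes passed the threshold of 0.05 on the adjusted p in any comparison, where 0.125%, 0.00836% and 0% of all genes did for PIAS3 against control, the siRNA against control and PIAS3 against the siRNA. The median difference of the set was 0.05 for PIAS3 against control, -0.03 for the siRNA against control and 0.04 for PIAS3 against the siRNA, beside -0.00 over all genes in each. A few genes on both sides of 0 had groups that stood apart. The damage-response gene GADD45A and the LIM protein gene FHL2 were below both controls in each of the 4 transfected arrays, and the kinase gene PLK2 was lowest with PIAS3. TOB1, GDF15, NINJ1 and TP53I11 read higher with PIAS3 than in either other group. GDF15 was far higher in PIAS3 replicate 1 than in replicate 2, and the other TP53I11 probe sets differed less. CDKN1A, the p21 gene and the best-known p53 target, also had both PIAS3 arrays above all others, by a small margin. PERP and XPC did as well. The range of CDKN1A over the 6 arrays was 0.60 and that of MDM2 0.46, beside a median range of 0.37 over all genes.

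**Figure D1:**
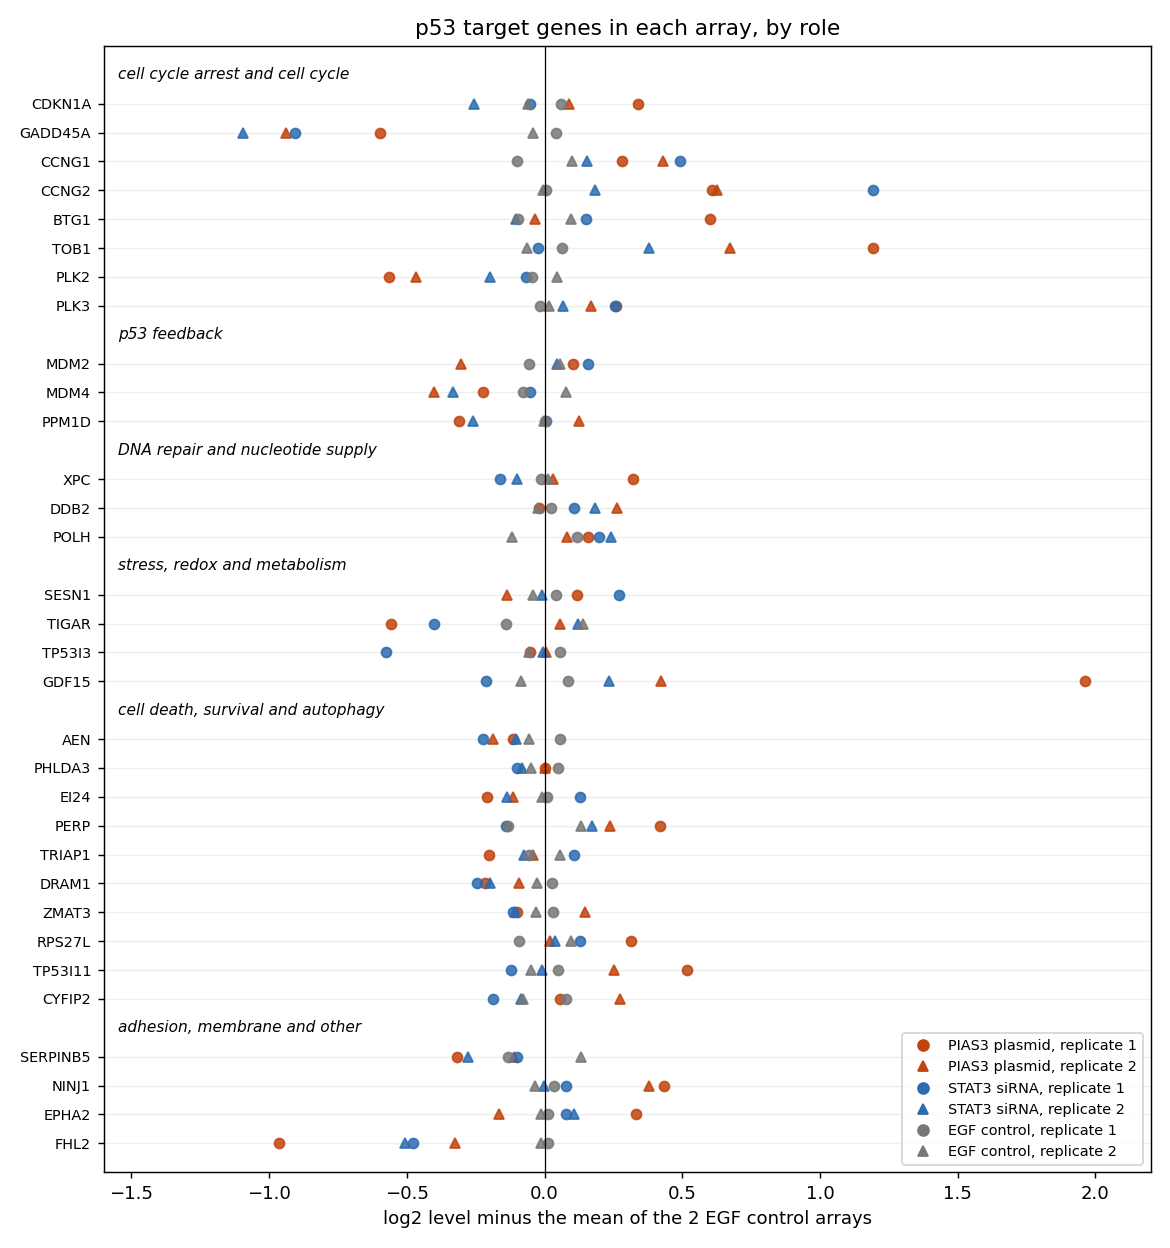
Each point is 1 array's log2 level of a p53 target gene minus the mean of the 2 EGF control arrays (horizontal axis), with genes grouped by role down the page. Colours stand for the group and shapes for the replicate; GDF15 and TOB1 reach furthest right in PIAS3 replicate 1, and GADD45A lies furthest left in siRNA replicate 2.

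Promoter sequence was examined for the genes that RefSeq windows cover, which left out GADD45A and PHLDA3. Windows of the 250 bases before each annotated gene start (GRCh38.p14) were matched by symbol for 30 of the 32 genes, in 45 windows, and both strands were searched for the p53 half-site consensus and for TATAAA; no match of one overlapped a match of the other. The half-site occurred in 5 of these 45 windows (11.1%), against 5.57% of all 35116 windows, and TATAAA in 4 (8.89%), against 10.7% of all windows. Of these 4, 2 were overlapping windows of FHL2. A site outside the 250 bases would be missed, so a window without a match says little about its gene. The windows with a half-site belonged to AEN, EI24, PLK2, RPS27L and SESN1. SESN1 also had windows without a half-site. The first 4 sequences below carry it in capitals with flanking bases. These sequences are shown because p53 is known to bind half-sites in pairs, although the search was for single half-sites. They lie at chr15:88621296-88621325 (plus strand, AEN), chr11:125569457-125569476 (plus, EI24), chr15:63157517-63157546 (minus, RPS27L) and chr6:109009018-109009047 (minus, SESN1).
AEN: agtcggagccGGGCTTGCCCgggcatgtgg
EI24: cgtgcggcccGGGCATGCCC
RPS27L: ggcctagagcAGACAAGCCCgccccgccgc
SESN1: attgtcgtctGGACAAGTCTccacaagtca

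Among these 5 genes, only PLK2 had groups that differed by over 0.5 in the fit. Its whole window (chr5:58460087-58460336, minus strand) is shown with the half-site in capitals, which starts at position -132 counted from the gene start. GDF15 (chr19:18385908-18386157, plus strand) is shown because it had the widest range of the set over the arrays, and its capitals mark TATAAA. The other genes with TATAAA were BTG1 and FHL2, of which BTG1 read highest and FHL2 lowest in PIAS3 replicate 1. A match is a description of these letters, not a site shown to be bound.
PLK2: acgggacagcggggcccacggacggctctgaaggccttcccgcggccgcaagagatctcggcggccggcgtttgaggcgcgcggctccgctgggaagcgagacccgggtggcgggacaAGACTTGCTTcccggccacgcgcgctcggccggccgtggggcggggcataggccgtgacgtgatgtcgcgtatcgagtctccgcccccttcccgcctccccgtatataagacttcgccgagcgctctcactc
GDF15: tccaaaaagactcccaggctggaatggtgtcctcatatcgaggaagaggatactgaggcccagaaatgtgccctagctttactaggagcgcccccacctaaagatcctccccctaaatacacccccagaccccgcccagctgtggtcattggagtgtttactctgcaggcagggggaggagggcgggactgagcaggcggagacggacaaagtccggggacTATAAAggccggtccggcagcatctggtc

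In the comparison of PIAS3 with control, 0 of 32 p53 target genes passed at the adjusted p, where 0.125% of all genes did. At an unadjusted p under 0.05, 5 of 32 (15.6%) were higher with PIAS3, against 7.13% of all genes: TOB1, NINJ1, TP53I11, GDF15 and CCNG1. Lower at that level were 3 of 32 (9.38%), against 7.44%: GADD45A, PLK2 and FHL2. Both PIAS3 arrays lay above both controls for 10 genes (31.2%, against 22.4% of all genes) and below both for 7 (21.9%, against 23.7%). For 27 of 32 (84.4%) the 95% interval of the difference lay within 1 log2 of 0, which held for 94.5% of all genes. The exceptions were CCNG2, FHL2, GADD45A, GDF15 and TOB1. The lowest adjusted p of the set was that of GADD45A, 0.0973.

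For the siRNA against control, 0 genes of the set passed at the adjusted p, beside 0.00836% of all genes. At an unadjusted p under 0.05, CCNG2 alone was higher (3.12%, against 2.32% of all genes), and FHL2 and GADD45A were lower (6.25%, against 3.06%). Both siRNA arrays lay above both controls for 6 of 32 (18.8%, against 19.4%) and below both for 9 (28.1%, against 19.5%). The 95% interval lay within 1 log2 for 29 of 32 (90.6%, against 97.3%), all but CCNG2, GADD45A and GDF15. GDF15 differed by 0.01, with an interval of -1.01 to 1.03. The fit takes a gene's spread from all groups together, so the gap between the PIAS3 arrays enters this comparison too.

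PIAS3 and siRNA arrays were also set directly against each other. At the adjusted p, 0 of 32 genes passed, as did 0% of all genes. Higher with PIAS3 at an unadjusted p under 0.05 were 7 of 32 (21.9%), against 4.19% of all genes: CDKN1A, CYFIP2, GDF15, NINJ1, TOB1, TP53I11 and XPC. PLK2 was lower (3.12%, against 3.83%). Both PIAS3 arrays lay above both siRNA arrays for 10 genes (31.2%, against 17% of all genes) and below both for PLK2 and POLH (6.25%, against 17.5%). Of these, POLH read low in every array, between 3.98 and 4.34. The 95% interval lay within 1 log2 for 30 of 32 (93.8%, against 96.3%), all but GDF15 and TOB1.

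**Figure D2:**
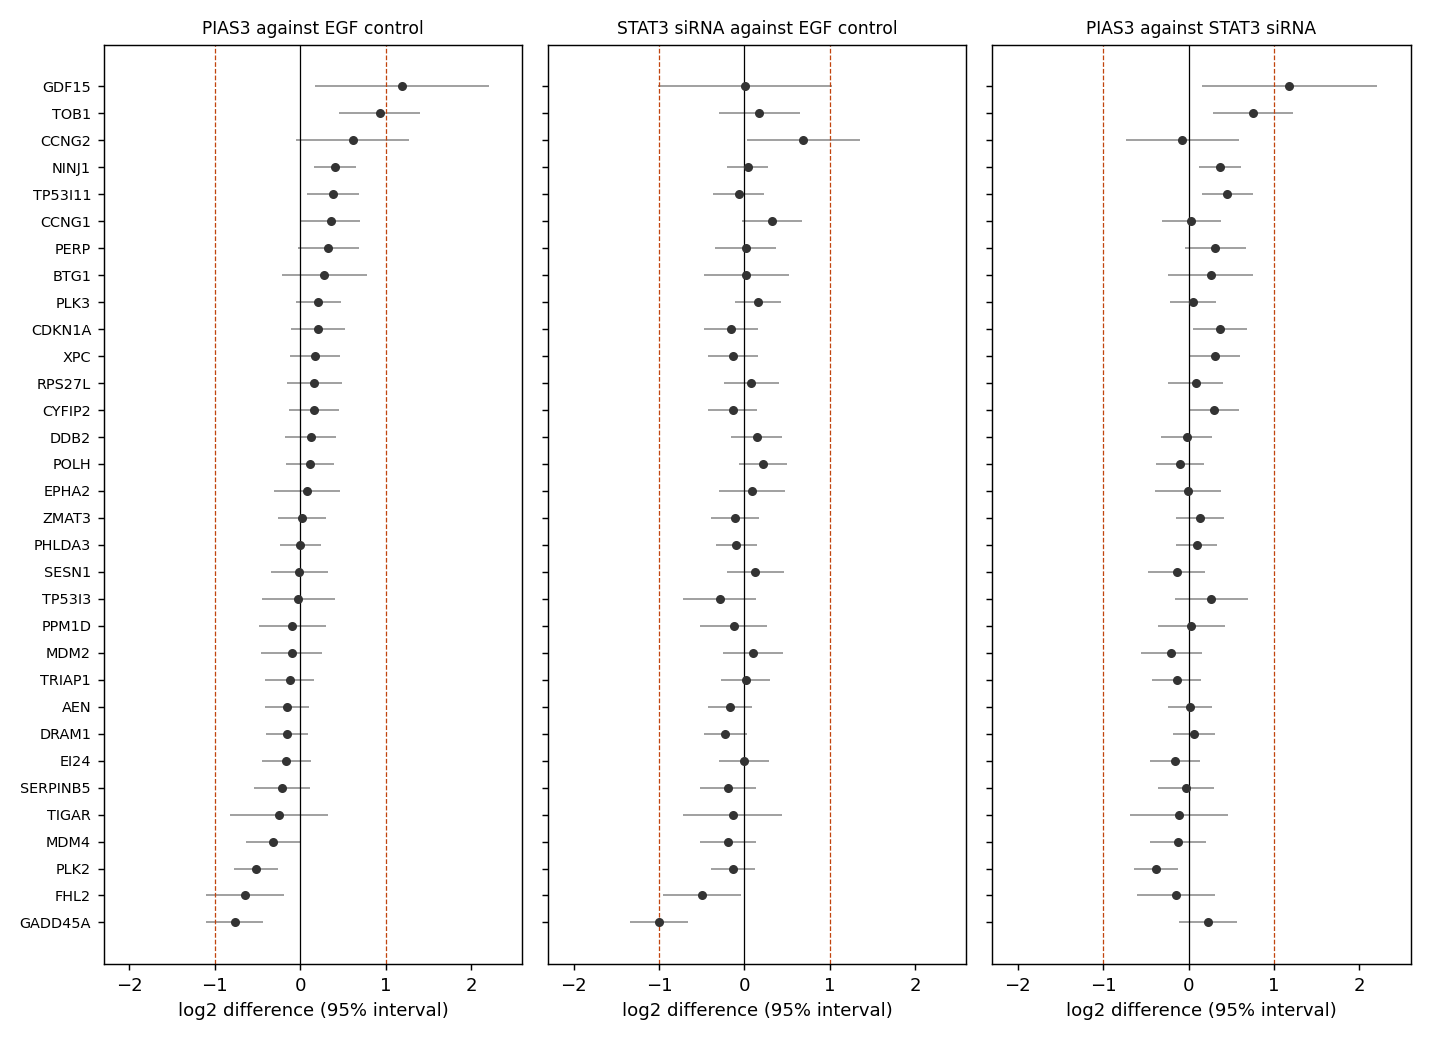
Points are the fitted log2 differences of the 32 p53 target genes in the 3 comparisons (first-named group minus the second) with 95% intervals from limma; dashed lines mark a log2 difference of 1 either way. Genes run from the highest (GDF15, 1.19) to the lowest (GADD45A, -0.77) in the comparison of PIAS3 with control.

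Of the cell cycle genes, 8 of 9 were measured, with medians of 0.25 for PIAS3 against control and 0.09 for the siRNA against control. GADD45A (Entrez gene 1647), whose protein binds PCNA and p21 and acts in growth arrest after damage, read 9.18 and 8.84 with PIAS3, 8.87 and 8.68 with the siRNA, and 9.82 and 9.74 in the control. The 4 transfected arrays all lay below the controls, and the PIAS3 and siRNA arrays overlapped. The difference from control was -0.77 ± 0.14 with PIAS3 (1.70-fold lower, adjusted p = 0.0973) and -1.0004 ± 0.14 with the siRNA (2.001-fold lower, adjusted p = 0.263), and the groups differed from each other by 0.23 ± 0.14. In bulk RNA, less transcript per cell and fewer cells that express a gene cannot be told apart.

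PLK2 (10769), a polo-like kinase of centriole duplication, read 10.48 and 10.58 with PIAS3, 10.98 and 10.85 with the siRNA, and 11.004 and 11.09 in the control. The PIAS3 arrays were the lowest of all, and the siRNA arrays lay just below the controls. The difference was -0.52 ± 0.11 from control (1.43-fold lower, adjusted p = 0.117) and -0.38 ± 0.11 from the siRNA (adjusted p = 0.607). Its paralog PLK3, a stress-responsive kinase, read 6.86 and 6.77 with PIAS3, 6.85 and 6.66 with the siRNA, and 6.58 and 6.61 in the control. PLK3 was thus on the other side of the control from PLK2, by 0.21 ± 0.11 with PIAS3 (adjusted p = 0.470), and its other probe set gave 0.10 ± 0.19.

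TOB1 (10140), an antiproliferative protein of the BTG/TOB family that recruits the CCR4-NOT deadenylase, read 10.87 and 10.35 with PIAS3, 9.65 and 10.05 with the siRNA, and 9.74 and 9.61 in the control. Both PIAS3 arrays were above every other array, whereas siRNA replicate 1 lay between the controls and siRNA replicate 2 above them. The difference was 0.93 ± 0.20 from control (1.91-fold, adjusted p = 0.118) and 0.76 ± 0.20 from the siRNA (adjusted p = 0.607), and without PIAS3 replicate 1 these were 0.67 and 0.50. Its family member BTG1 read 11.93 and 11.29 with PIAS3, 11.48 and 11.22 with the siRNA, and 11.23 and 11.42 in the control. On that BTG1 probe set only PIAS3 replicate 1 was outside the range of the other arrays, and the difference from control was 0.28 ± 0.21. On the other BTG1 probe set, with 11.78 and 11.22 for PIAS3, 11.02 and 11.04 for the siRNA, and 11.12 in each control, both PIAS3 arrays were above all others. It gave 0.38 ± 0.18 against control (adjusted p = 0.402) and 0.47 ± 0.18 against the siRNA (adjusted p = 0.607).

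The paralogs CCNG1 and CCNG2 encode atypical cyclins, of which cyclin G1 is known to act with PP2A on MDM2. CCNG1 (900) read 10.58 and 10.74 with PIAS3, 10.80 and 10.46 with the siRNA, and 10.21 and 10.40 in the control. CCNG2 (901) read 7.72 and 7.74 with PIAS3, 8.30 and 7.30 with the siRNA, and 7.12 and 7.11 in the control. For both, all 4 transfected arrays were above both controls. CCNG1 differed from control by 0.36 ± 0.15 with PIAS3 (adjusted p = 0.351) and by 0.32 ± 0.15 with the siRNA (adjusted p = 0.9998). CCNG2 differed by 0.62 ± 0.28 with PIAS3 (adjusted p = 0.397) and by 0.69 ± 0.28 with the siRNA (adjusted p = 0.9998). The siRNA value rested on replicate 1, since it was 0.18 without that array and 1.19 without replicate 2. The other CCNG2 probe sets gave 0.49 ± 0.25 and 0.43 ± 0.33 for PIAS3, and 0.62 ± 0.25 and 0.67 ± 0.33 for the siRNA.

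CDKN1A (1026), the cyclin-dependent kinase inhibitor p21, read 10.49 and 10.24 with PIAS3, 10.10 and 9.89 with the siRNA, and 10.21 and 10.09 in the control. The PIAS3 arrays were the highest, by a small margin, and the siRNA arrays overlapped the controls. The difference from control was 0.21 ± 0.13 with PIAS3 (95% interval -0.10 to 0.53) and -0.15 ± 0.13 with the siRNA (-0.47 to 0.16). Between PIAS3 and siRNA it was 0.37 ± 0.13 (adjusted p = 0.607), and 0.24 without PIAS3 replicate 1.

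**Figure D3:**
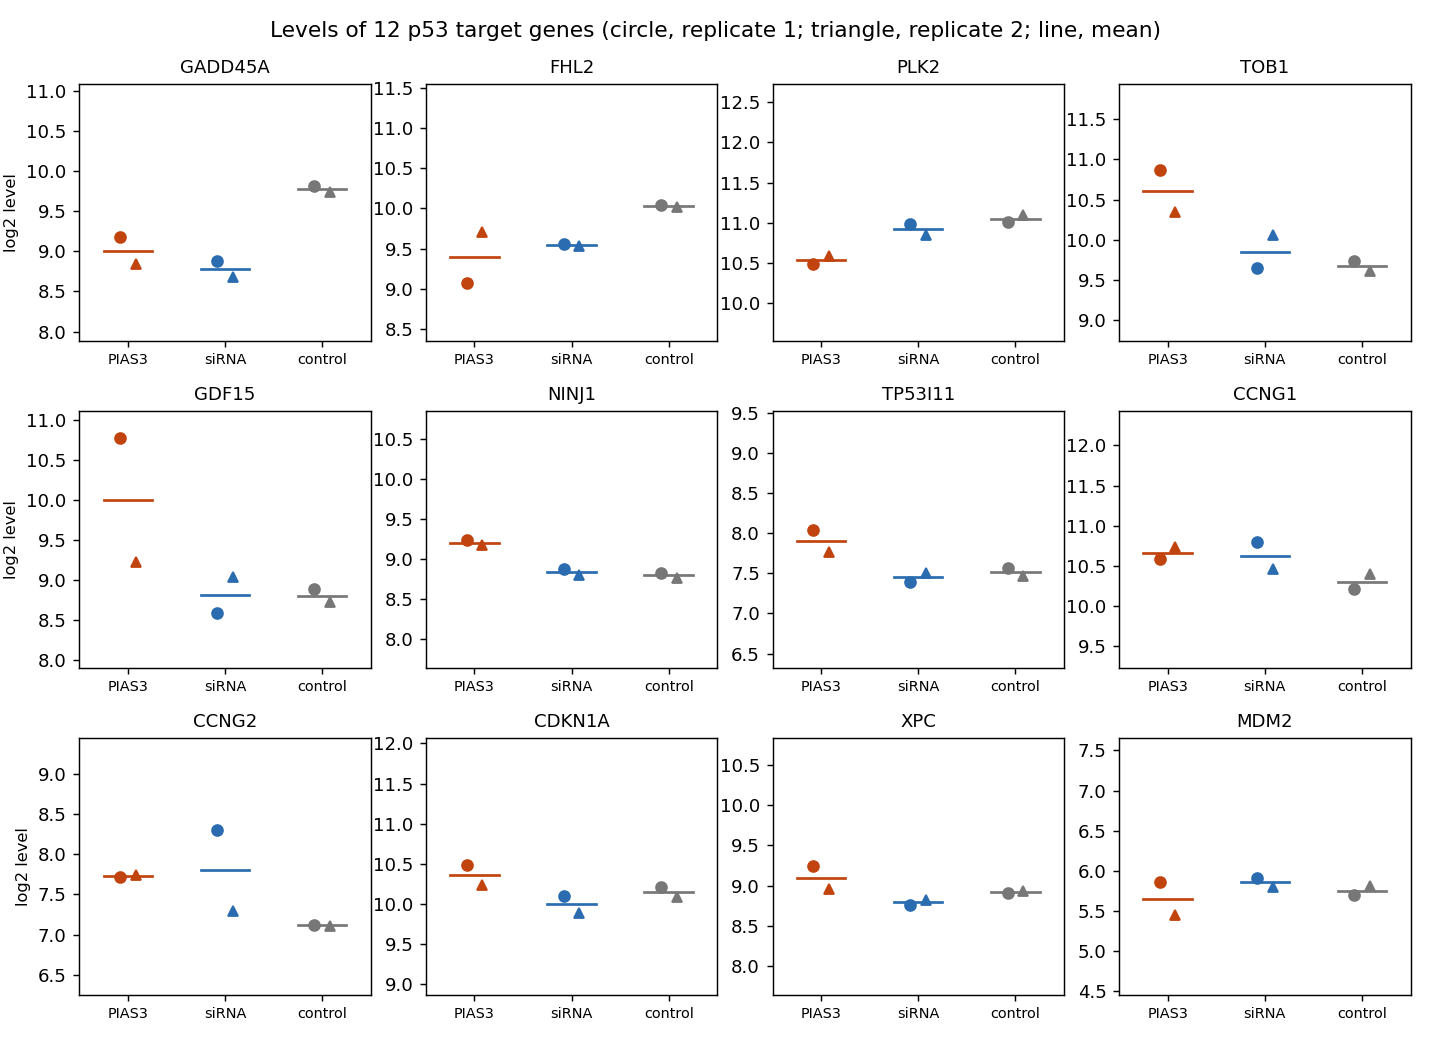
Log2 levels of 12 p53 target genes in the PIAS3, siRNA and control arrays; circles are replicate 1, triangles replicate 2 and lines the group means, and every panel spans the same log2 range. GADD45A and FHL2 are highest in the controls, TOB1, NINJ1 and TP53I11 highest in both PIAS3 arrays, and GDF15 is far higher in PIAS3 replicate 1 than in replicate 2.

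The 3 feedback genes, which restrain p53, were all measured. MDM2 (4193), the ubiquitin ligase that p53 induces and that degrades p53, read 5.86 and 5.45 with PIAS3, 5.91 and 5.80 with the siRNA, and 5.70 and 5.81 in the control. Its groups overlapped, with differences from control of -0.10 ± 0.15 with PIAS3 (95% interval -0.46 to 0.25) and 0.10 ± 0.15 with the siRNA (-0.25 to 0.46). PPM1D, the phosphatase WIP1, overlapped as well, with -0.09 ± 0.17 and -0.13 ± 0.17. MDM4, an MDM2 relative that blocks p53's activation domain, read 3.55 and 3.38 with PIAS3, 3.73 and 3.45 with the siRNA, and 3.70 and 3.86 in the control. All 6 MDM4 values lay within 3.26 to 3.93, the range of 3 array probe sets for an absent bacterial transcript, so its difference of -0.31 ± 0.14 with PIAS3 (adjusted p = 0.378) was measured at background level. The 4 other MDM2 probe sets read between 3.21 and 4.76. On its brightest probe set MDM2 read between 5.45 and 5.91. CDKN2A, which A549 is known to lack, read between 5.59 and 5.82. The MDM2 values may therefore lie near background, and their overlap says little about MDM2.

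Of the DNA repair genes, 3 of 4 were measured, and their medians were 0.12 for PIAS3 and 0.14 for the siRNA against control. XPC (7508), the damage sensor of global genome nucleotide excision repair, read 9.24 and 8.96 with PIAS3, 8.76 and 8.82 with the siRNA, and 8.91 and 8.93 in the control. Its PIAS3 arrays were both above the controls and its siRNA arrays both below, by 0.18 ± 0.13 and -0.13 ± 0.13. PIAS3 replicate 2 cleared the higher control by little, and the direct difference between PIAS3 and siRNA was 0.31 ± 0.13 (adjusted p = 0.610), and 0.16 without PIAS3 replicate 1. DDB2, the partner of DDB1 in UV damage recognition, gave 0.12 ± 0.13 and 0.14 ± 0.13. POLH, the translesion polymerase eta, gave 0.12 ± 0.12 and 0.22 ± 0.12. It read between 3.98 and 4.34, just above the absent-transcript range of 3.26 to 3.93, so these differences may be near background.

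Among the stress and metabolism genes, 4 of 6 were measured, and GDF15 was the one with a wide range. GDF15 (9518), a secreted stress cytokine of the TGF-beta family, read 10.77 and 9.23 with PIAS3, 8.59 and 9.04 with the siRNA, and 8.89 and 8.72 in the control. Both PIAS3 arrays were above all others, but replicate 1 lay far above replicate 2. The difference was 1.19 ± 0.43 from control (2.29-fold, adjusted p = 0.288) and 1.18 ± 0.43 from the siRNA (adjusted p = 0.607). Without PIAS3 replicate 1 it was 0.42 from control and 0.41 from the siRNA. That is the array with the raised interferon-stimulated genes and spike-ins described above, and without replicate 2 the values were 1.96 and 1.95. The part of these in the GDF15 difference was not tested. The other GDF15 probe set, which read between 4.31 and 4.47, gave 0.08 ± 0.10. The sestrin SESN1, the fructose bisphosphatase-like enzyme TIGAR and the quinone reductase TP53I3 differed by -0.01 ± 0.14, -0.25 ± 0.25 and -0.02 ± 0.18 with PIAS3. With the siRNA they differed by 0.13 ± 0.14, -0.14 ± 0.25 and -0.29 ± 0.18, and their groups overlapped in each case.

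Of the genes of cell death, survival and autophagy, 10 of 11 were measured, with medians of 0.01 for PIAS3 and -0.08 for the siRNA against control. TP53I11 (9537), a gene named for its induction by p53, read 8.04 and 7.77 with PIAS3, 7.39 and 7.51 with the siRNA, and 7.57 and 7.47 in the control. Both PIAS3 arrays were the highest, by 0.38 ± 0.13 over control (1.31-fold, adjusted p = 0.251) and 0.45 ± 0.13 over the siRNA (adjusted p = 0.607). Its other probe sets gave 0.15 ± 0.11 and -0.02 ± 0.11 against control, and 0.01 ± 0.11 and -0.05 ± 0.11 against the siRNA. The mean of its probe sets gave 0.17 against control and 0.14 against the siRNA.

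PERP (64065), a desmosome-associated membrane protein linked to p53-dependent death, read 10.78 and 10.60 with PIAS3, 10.23 and 10.54 with the siRNA, and 10.23 and 10.50 in the control. The PIAS3 arrays were the highest, with replicate 2 just above the others, and the difference from control was 0.33 ± 0.15 (adjusted p = 0.405). CYFIP2 (26999), a subunit of the WAVE actin regulatory complex, read 9.15 and 9.37 with PIAS3, 8.91 and 9.01 with the siRNA, and 9.17 and 9.02 in the control. Its PIAS3 arrays overlapped the controls but not the siRNA arrays, from which they differed by 0.30 ± 0.12 (adjusted p = 0.610), and by 0.19 without PIAS3 replicate 2. Its other probe set gave 0.31 ± 0.11 for the same comparison, and for the siRNA against control -0.37 ± 0.11 (adjusted p = 0.878), beside -0.14 ± 0.12 on the first.

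Like TP53I11, PERP and CYFIP2, the rest of this group differed by less than 0.5 on the log2 scale in every comparison. The nuclease AEN, the autophagy regulator DRAM1 and the endoplasmic reticulum protein EI24 were below both controls in both PIAS3 arrays, by 0.15 ± 0.11, 0.16 ± 0.11 and 0.16 ± 0.12. AEN and DRAM1 were below both controls with the siRNA too, by 0.16 ± 0.11 and 0.22 ± 0.11. PHLDA3, a repressor of AKT, gave 0.00 ± 0.10 with PIAS3 and -0.09 ± 0.10 with the siRNA, and had the narrowest range of the set over the 6 arrays, 0.15. The RNA-binding protein ZMAT3, the apoptosis inhibitor TRIAP1 and the ribosomal protein paralog RPS27L gave 0.02 ± 0.12, -0.12 ± 0.12 and 0.17 ± 0.14 with PIAS3. With the siRNA they gave -0.11 ± 0.12, 0.02 ± 0.12 and 0.08 ± 0.14.

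Of the adhesion and membrane genes, all 4 were measured. NINJ1 (4814), the membrane protein that ruptures the plasma membrane in lytic death, read 9.23 and 9.18 with PIAS3, 8.88 and 8.79 with the siRNA, and 8.83 and 8.76 in the control. The PIAS3 arrays were close to each other and above all others, by 0.41 ± 0.10 over control (1.33-fold, adjusted p = 0.156) and 0.37 ± 0.10 over the siRNA (adjusted p = 0.607). Relative to the control mean the PIAS3 arrays read 0.43 and 0.38, so that neither replicate decided the difference.

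FHL2 (2274), a LIM-domain coactivator, read 9.07 and 9.71 with PIAS3, 9.55 and 9.53 with the siRNA, and 10.05 and 10.02 in the control. All 4 transfected arrays were below both controls, and PIAS3 replicate 1 was the lowest. The difference from control was -0.64 ± 0.19 with PIAS3 (1.56-fold lower, adjusted p = 0.212) and -0.49 ± 0.19 with the siRNA (1.41-fold lower, adjusted p = 0.9998). The PIAS3 value was -0.33 without replicate 1 and -0.96 without replicate 2. The receptor tyrosine kinase EPHA2 gave 0.08 ± 0.16 with PIAS3 and 0.09 ± 0.16 with the siRNA, and the serpin SERPINB5, also called maspin, -0.21 ± 0.14 and -0.19 ± 0.14. SERPINB5 read between 4.12 and 4.57, not far above the absent-transcript range, so its differences may be near background.

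The spread among the genes was wider in the transfected arrays than between the controls. Deviations from the control mean had an interquartile range of 0.55 and 0.36 with PIAS3, 0.30 and 0.26 with the siRNA, and 0.11 in each control, which is measured against its own mean. Over all genes it was 0.36 and 0.24 with PIAS3, 0.20 and 0.24 with the siRNA, and 0.09 in each control. The range over the 6 arrays had a median of 0.47 in the set and 0.37 over all genes, and 19 of 32 had a range under 0.5, which held for 71.8% of all genes. PIAS3 replicate 1 held the highest value of 11 of the 32 and the lowest of 7 (24.4% and 30.0% of all genes).

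Genes around p53 were read from 4 further lists, and 0 of their members passed at the adjusted p in any comparison, beside the shares over all genes given above. Of 22 measured regulators of p53 the median was -0.08 with PIAS3 and -0.03 with the siRNA, and at an unadjusted p under 0.05 PIAS3 had 1 higher and 4 lower, where 7.13% of all genes were higher and 7.44% lower. The one higher was the checkpoint kinase CHEK2, at 0.39 ± 0.13. PPP1R13L, the p53 inhibitor iASPP, read 7.98 and 8.56 with PIAS3, 8.48 and 8.23 with the siRNA, and 8.99 and 9.03 in the control. It was lower in all transfected arrays, by 0.74 ± 0.19 with PIAS3 (adjusted p = 0.168) and 0.66 ± 0.19 with the siRNA (adjusted p = 0.870). Relative to the control mean the PIAS3 arrays read -1.03 and -0.45. TRIM24, a ubiquitin ligase for p53, the checkpoint kinase CHEK1 and the damage kinase ATR gave -0.62 ± 0.15, -0.59 ± 0.17 and -0.38 ± 0.11 with PIAS3. CDKN2A read 5.82 and 5.79 with PIAS3, 5.72 and 5.59 with the siRNA, and 5.65 and 5.78 in the control.

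Of 9 measured apoptotic targets of p53, 0 had an unadjusted p under 0.05 in any comparison. At that level 7.13% of all genes were higher and 7.44% lower with PIAS3, and 2.32% and 3.06% with the siRNA. For PIAS3 against the siRNA the shares were 4.19% and 3.83%, so 0 of 9 is close to these shares. The medians of the 9 genes were 0.04 with PIAS3 and 0.03 with the siRNA, with 5 of 9 above 0 in each. BAX, a pore-forming member of the BCL2 family, gave -0.34 ± 0.15 with PIAS3 and -0.04 ± 0.15 with the siRNA. The BH3-only gene PMAIP1 gave -0.39 ± 0.27 and -0.46 ± 0.27, and the death receptor genes FAS -0.09 ± 0.13 and -0.14 ± 0.13 and TNFRSF10B -0.03 ± 0.15 and -0.29 ± 0.15. PIDD1, a scaffold for caspase-2, gave 0.25 ± 0.13 and 0.03 ± 0.13, and both of its PIAS3 arrays were above both controls.

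Among 21 further p53 targets the medians were -0.05 with PIAS3 and -0.02 with the siRNA, and PIAS3 had 2 higher and 5 lower at an unadjusted p under 0.05, against 7.13% and 7.44% of all genes. ATF3, a stress-induced transcription factor that many pathways besides p53 induce, read 8.37 and 6.65 with PIAS3, 6.53 and 6.27 with the siRNA, and 8.92 and 8.88 in the control. It was below both controls in all 4 transfected arrays, and PIAS3 replicate 1 was the nearest to them. The difference was -1.39 ± 0.47 with PIAS3 (adjusted p = 0.254) and -2.50 ± 0.47 with the siRNA (adjusted p = 0.442). Both errors include the gap between the PIAS3 arrays. SFN, the 14-3-3 sigma gene, gave -0.77 ± 0.22 with PIAS3, with -1.08 in replicate 1 and -0.45 in replicate 2 relative to the control mean. ANKRA2 and ABHD4 gave 0.43 ± 0.14 and 0.35 ± 0.10. The highest difference of this list with PIAS3 was that of TRIM22, 2.45 ± 1.24 (adjusted p = 0.445). TRIM22 read 9.17 and 4.47 with PIAS3, 4.37 and 4.30 with the siRNA, and 4.30 and 4.44 in the control. It was thus raised in PIAS3 replicate 1 alone, the array with the raised interferon-stimulated genes.

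The 16 mitotic genes that p53 is known to lower through p21 and the DREAM repressor complex were all measured. Their medians were 0.10 with PIAS3 and 0.39 with the siRNA against control, and -0.18 for PIAS3 against the siRNA. With the siRNA all 16 differences were above 0, as were 5925 of 11963 over all genes. Of the 16, 8 had an unadjusted p under 0.05, where 2.32% of all genes were higher at that level. Among them were CENPF at 0.49 ± 0.15, AURKA at 0.55 ± 0.17, CDC25C at 0.65 ± 0.20 and BUB1 at 0.61 ± 0.22. With PIAS3, 10 of the 16 were above 0. At the same level 3 were higher and 0 lower with PIAS3, against 7.13% and 7.44% of all genes. Relative to the control mean, the median of the 16 genes was -0.02 and 0.20 with PIAS3 and 0.42 and 0.28 with the siRNA. The PIAS3 arrays thus differed between themselves.

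**Figure D4:**
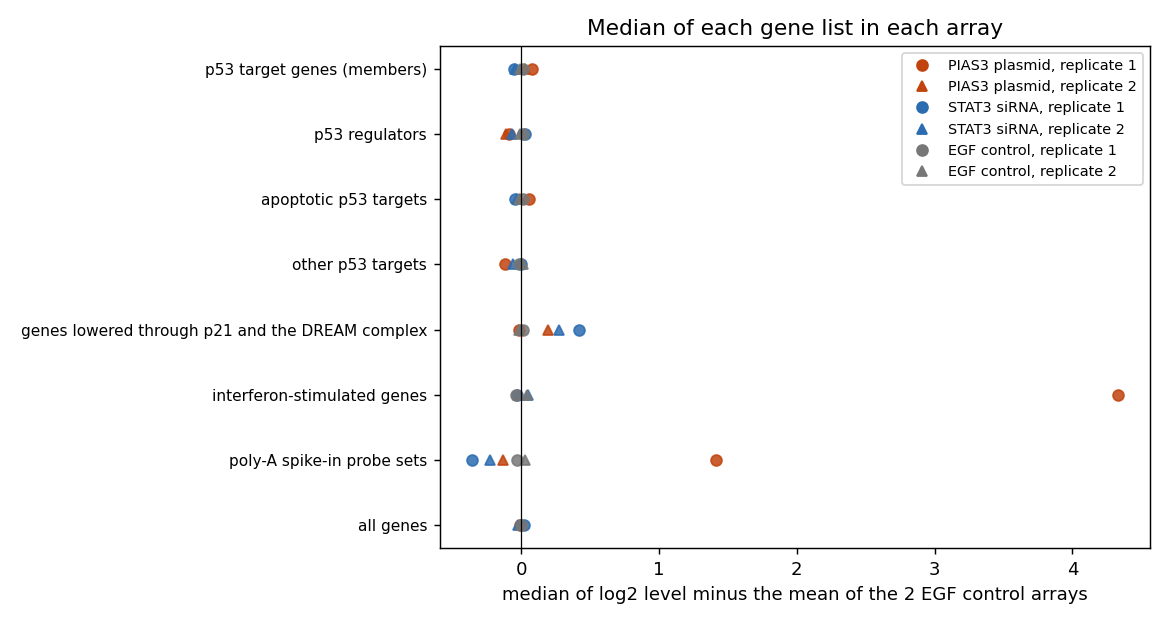
Each point is the median over a gene list of the log2 level minus the mean of the 2 EGF control arrays, in 1 array; colours stand for the group and shapes for the replicate. The p53 target genes lie between -0.05 and 0.08 in every array, while the interferon-stimulated genes reach 4.33 and the spike-in probe sets 1.41 in PIAS3 replicate 1 alone.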

How the data were processed

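Total RNA from A549 cells was measured on 6 Affymetrix arrays, grouped by their titles. Values are the log2 expression that the authors deposited for each probe set. RMA, without a version, is named in the submitters' processing notes; it subtracts background and normalizes the arrays to each other, on the premise that few genes differ. Neither software, annotation version, build nor scan batch is known here. Array medians were 6.63 to 6.72.

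Of 22277 probe sets, 62 array controls were left out and 22215 tested. The platform annotation gave 19064 of them 1 symbol, 1043 several and 2108 none, and 19052 were matched by gene identifier. Two-sided tests used lmFit and eBayes of limma 3.58.1 (R 4.3.3), on all 6 arrays with 1 mean per group; the residual degrees of freedom were 3 and the prior ones 4.27. Benjamini-Hochberg adjustment covered 22215 probe sets per comparison. Shares of all genes use 1 probe set for each of 11963 genes. Errors are the fit's standard errors, and 95% intervals use its degrees of freedom.

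The genes and lists were chosen with earlier results of these data known. Every measured target is named. Values in every array are given for those with an unadjusted p under 0.05, or with groups that did not overlap and a difference of at least 0.3. BTG1, MDM2, PLK3, CDKN2A, ATF3, PPP1R13L and TRIM22 were added. From other lists, genes were named from the 4 with the smallest p in any of the comparisons, and CHEK2 and TRIM22 after their values were seen. The gene of p53 itself is not reported here.

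The fit was tested on simulated data with known changes. Those data had the same spread in every group. The real replicates differed with an SD of 0.35 with PIAS3, 0.25 with the siRNA and 0.15 in the control. The test therefore does not show how the fit behaves under such unequal spread. Alternatives were 17 in number: a replicate block, other normalizations and eBayes settings, array weights, a filter on dim probe sets, a fit of 2 groups alone, another threshold, averaging a gene's probe sets, and omission of each array. An array left alone in its group by such an omission is taken to vary as the other groups do. Plots were made in Python 3.11.15 (matplotlib 3.10.9).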

Additional observations from a re-analysis of the deposited data

Results flagged for a closer look

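XPC lay above both controls in both PIAS3 arrays, by 0.32 and 0.03, and below both in both siRNA arrays, by 0.16 and 0.10, each against the control mean. The difference between PIAS3 and siRNA was 0.31 ± 0.13 on the log2 scale, which did not pass in the limma fit (adjusted p = 0.610), and it was 0.16 without PIAS3 replicate 1. The cause was not tested.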

How the results depend on the processing

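The number of probe sets called for PIAS3 against control was 22, against 254 at an adjusted p under 0.10, 2 after a second quantile normalization, 2 after filtering dim probe sets, 39 with cyclic loess, 40 with robust eBayes, 143 with array weights and 262 when these groups were fitted alone. With arrays left out it ran between 0 (either control array) and 1232 (PIAS3 replicate 2). Replicate numbers did not pair the arrays (correlations of deviations -0.05, 0.09 and -0.06), and a replicate block gave 2. For the siRNA against control, 1 was called, against 0 with quantile normalization or cyclic loess, 8 with array weights, 3 with the 2 groups alone, and 0 to 5 with arrays left out. For PIAS3 against the siRNA it was 0 (793 higher and 1006 lower at an unadjusted p under 0.05), and 0 to 544 with arrays left out, 544 without PIAS3 replicate 2.

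Of the p53 target genes, 0 were called for PIAS3 against control, against 1 (GADD45A) at 0.10 and 0 to 3 with arrays left out; the 3 were FHL2, GDF15 and TOB1, without PIAS3 replicate 2. For PIAS3 against the siRNA the range was 0 to 1, GDF15 without the same array. Their median for PIAS3 against control, 0.0526, was 0.0853 with cyclic loess, 0.102 with the filter and -0.0044 to 0.0795 with arrays left out. For PIAS3 against the siRNA, 0.0432, it was 0.0763 with quantile normalization, 0.1031 with cyclic loess, 0.0754 with the filter and 0.0297 to 0.1067 with arrays left out. None of the 19 differences of single target genes with an unadjusted p under 0.05 changed sign under the 17 alternatives. However, only the other normalizations and the averaging of probe sets could have changed a sign. Groups did not overlap for any of the 19, so leaving out an array could not. The remaining settings leave the difference itself unchanged. The causes were not tested. MDM4 read within the range of absent-transcript probe sets in all 6 arrays.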
